A study of Mus musculus with 12 samples.

Results

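B lymphoma cells that had lost the B cell receptor (BCR) and then grown out as receptor-free clones were compared with receptor-positive cells of the same tumours. The comparison used 6 of the 12 arrays of the study, 3 from BCR-independent clones and 3 from BCR-positive cells, and every probe set of the array entered it. The other 6 arrays, 3 of BCR-negative cells and 3 of BCR-negative cells treated with CHIR99021, an inhibitor of the kinase GSK3, stayed in the model and are used here only to place the members of this comparison. All cells were primary lymphoma cultures from l-MYC;B1-8f mice on a mixed C57BL/6J and BALB/c background, so every group comes from cells with the MYC transgene and the loxP-flanked B1-8 heavy chain allele, the target of Cre. The labels give no age. Cre protein fused to a TAT peptide was used to remove the receptor in culture. BCR-positive cells carried the receptor, BCR-negative cells had lost it, and BCR-independent clones were grown out of BCR-negative tumour cells during prolonged culture. Each of the tumours, numbered 2567, 2646 and 2676, gave 1 array per group, and each BCR-independent array is a single clone: clone 8 of tumour 2567, clone 7 of tumour 2646 and clone 1 of tumour 2676.

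Cells were kept for 4 days in mixed cultures, sorted by flow cytometry, and their total RNA was hybridised to mouse whole-transcript arrays (Affymetrix Gene 1.1 ST). The clones had been mixed with receptor-positive cells of their own tumour. The BCR-positive arrays compared here came from mixtures with BCR-negative cells, so receptor status and culture cannot be told apart. The BCR-positive arrays of tumours 2646 and 2676 carry a mark (2) in their titles that the labels do not explain and no clone carries, so tumour 2567 is the only one whose pair lacks it. With 1 array per tumour and group, p-values reflect the spread between these samples only.

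The BCR consists of a membrane immunoglobulin, built of heavy and light chains, held by the signalling chains CD79A and CD79B. When it is engaged, kinases of the SRC family, SYK and BTK pass the signal on to calcium, protein kinase C, NF-kB, RAS-ERK and PI3K. A mature B cell also uses its receptor to take up antigen, which it displays to T cells on MHC class II. Withdrawal of the receptor is known to cost resting B cells their survival, and many B lymphomas keep it.

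Levels are log2 signals, in which a difference of 1 is a doubling, and the values of each gene are given below in the order of tumours 2567, 2646 and 2676. Differences are BCR-independent minus BCR-positive, fitted by limma with the tumour as a block, and called means a p under 0.05 after Benjamini-Hochberg adjustment over all 35556 probe sets. Array medians lay between 3.32 and 3.44, and signals near them have no measured background beside them. Cells of both groups carried B lineage RNA. The B cell list, with 11 of 12 markers measured, averaged 7.95 to 8.39 on the BCR-positive arrays and 7.70 to 8.25 on the clones, and the receptor chain gene Cd79a measured 9.68, 10.21 and 10.19 against 10.44, 10.75 and 10.05 in the clones. Pax5, the B lineage commitment factor, measured 8.37, 8.72 and 8.66 in BCR-positive cells and 8.67, 8.66 and 8.36 in the clones. Other markers were less even, with 7 of 11 lower in the clones, and 11 of 11 in tumour 2676. By limma 4 were lower with an unadjusted p under 0.05 and 1 was higher, against 3.36% and 4.3% of all genes. The differences were -1.80 for Blk, -0.73 for Cd72, -0.84 for Ebf1 and 0.42 for Blnk, none of them called. Ms4a1, which encodes CD20, lay at 2.55 to 3.19 on these 6 arrays and is uninformative. Marker lists of T and NK, myeloid, erythroid and megakaryocyte, and stromal and endothelial cells averaged 3.0 to 3.64 over both groups. Members above the array median on all arrays of both groups were 3 of 15 in the T and NK list and 4 of 12 in the stromal and endothelial list. They were 1 of 14 in the myeloid list and 1 of 7 in the erythroid and megakaryocyte list. Cd2, an adhesion receptor in the T and NK list, measured 6.28, 5.62 and 5.37 in BCR-positive cells and 8.10, 7.93 and 5.92 in the clones. In that list 8 of 15 members were higher in the clones and 7 were lower. The T cell receptor chain genes Cd3d and Cd3e had means of 2.98 and 2.96 in BCR-positive cells and 2.77 and 3.14 in the clones. The part of Cd2 in the other results was not tested. Xist lay between 7.57 and 9.30 and the Y-linked genes Uty, Kdm5d and Eif2s3y between 2.37 and 2.82 on these arrays, so no array stood apart by sex.

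Few probe sets passed the threshold. Of 35556 probe sets, 8 were called (0.0225%), 2 of them higher (0.00562%) and 6 lower (0.0169%) in the clones, while 2618 (7.36%) had an unadjusted p under 0.05. Among the 18820 genes with a probe set of their own, 3 were called (0.0159%). Mgat4c, a member by likeness of the enzyme family that branches N-linked sugar chains, rose (0.00531% of genes called higher). Ighv1-72, the heavy chain variable segment, and Cd74, the chaperone of MHC class II, fell (0.0106% of genes called lower). The remaining 5 called probe sets name no single gene. Under quantile normalization of the same values 1 probe set was called higher and 7 lower. The number called was 0 without tumour 2567, 8 without tumour 2646 and 0 without tumour 2676, and 0 when the fit held only these 6 arrays. Across all genes the median difference was 0.013, and 54.2% of genes were higher in the clones. The pathways below are described through 39 lists with 668 measured genes, of which limma called 2, Cd74 and Mgat4c. Of the 668, 103 had an unadjusted p under 0.05 in limma. Among all genes, 4.3% had such a p and were higher, and 3.36% were lower. Members and lists were chosen with earlier results of these data known, so list counts beside these shares are not independent evidence.

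**Figure D1:**
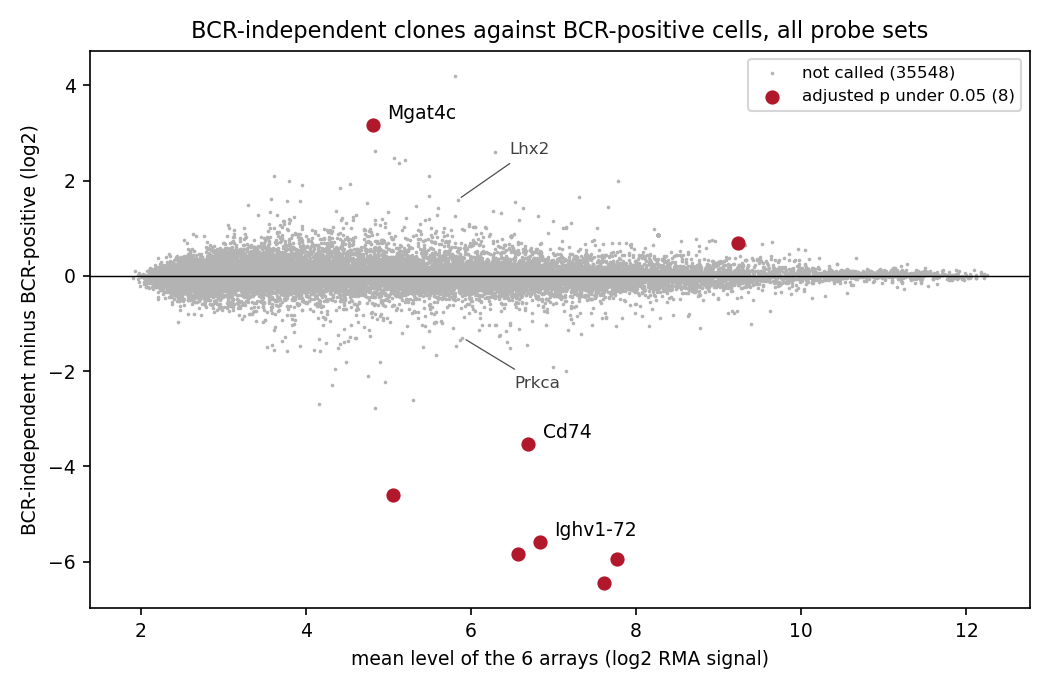
Difference between BCR-independent clones and BCR-positive cells (log2, vertical axis) against mean level (log2 signal, horizontal axis) for all 35556 probe sets, with the 8 called probe sets marked. Most probe sets lie close to 0, and the called decreases are Ighv1-72, Cd74, 2 probe sets annotated to several genes and 2 with no gene name.

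Within each tumour, many genes differed by at least 1 log2 unit, but mostly not the same ones. That distance separated clone and BCR-positive cells at 366 genes in tumour 2567, 270 in tumour 2646 and 314 in tumour 2676. In all 3 tumours at once, 8 genes were higher and 6 were lower by that much. Of the differences in tumour 2567, 264 were higher in the clone and 102 lower. The balance was the other way round in tumour 2676, where 88 were higher and 226 lower. BCR-negative cells differed from the same BCR-positive cells by at least 1 log2 unit at 12, 268 and 47 genes in tumours 2567, 2646 and 2676. In tumour 2646 that count was close to the clone's.

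The heavy chain is given first because the cells were sorted on the receptor. The B1-8 heavy chain is built on the variable segment Ighv1-72. This segment measured 9.45, 9.45 and 9.97 in the BCR-positive cells and 4.20, 4.21 and 3.72 in the clones, a difference of -5.58 (SE 0.32, adjusted p = 0.00072), or 47.8-fold lower. Every clone lay far below every BCR-positive array. Given that sort, this value checks the labels. The same gene measured 6.97, 5.85 and 6.50 in BCR-negative cells, between the clones and the BCR-positive cells in each tumour. In bulk RNA, fewer cells that carry a transcript and less of it per cell cannot be told apart. Variable segments have near-identical relatives, so part of the signal may belong to them. The call was lost when tumour 2567 (adjusted p = 0.113) or tumour 2676 (adjusted p = 0.088) was left out of the limma fit.

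Another pair of called probe sets is annotated to more than 1 heavy chain gene, with differences of -6.43 and -5.93. The 3 called without any gene name differed by -5.83, -4.60 and 0.69. Probe sets for the heavy chain constant gene Ighm lay near the array medians in both groups, at 4.20, 4.01 and 4.05 against 3.91, 3.69 and 3.60 in the clones for the brighter one, and check nothing. The receptor's signalling chain Cd79b stayed abundant, at 9.34, 9.59 and 9.54 in BCR-positive cells and 9.24, 9.92 and 9.44 in the clones, with overlapping groups.

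Cd74 fell in the clones. This gene encodes the invariant chain, which fills the groove of newly made MHC class II molecules, guides them to endosomes, and at the surface also acts as a receptor for the cytokine MIF. BCR-positive cells measured 7.43, 8.66 and 9.28, and the clones measured 4.75, 5.21 and 4.85. The highest clone was more than 2 log2 units below the lowest BCR-positive array. The difference was -3.52 (SE 0.36, adjusted p = 0.0287) by limma with Benjamini-Hochberg adjustment, or 11.5-fold, and within the tumours it was -2.69, -3.45 and -4.44. BCR-negative cells lay between, at 5.25, 6.75 and 7.11, and the CHIR99021-treated ones at 7.31, 7.20 and 7.67. Without the tumour block the adjusted p was 0.142, and leaving out 1 tumour gave adjusted p-values from 0.103 to 0.476.

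Cd74 was the 1 called member among 13 measured genes of MHC class II presentation. The members split. In the list, 8 of 13 were lower in the clones, with a median difference of -0.11, and tumour 2567 had a median of 0.20 where tumour 2646 had -0.33 and tumour 2676 had -0.54. Groups did not overlap, with the clones lower, for 4 members, against 2.62% of all genes. The list, which holds Cd74, was chosen with earlier results known, so this count is not independent of them.

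Of the classical class II chains, H2-Aa and H2-Eb1 were lower in the clones without overlap, while the groups overlapped for H2-Ab1. H2-Aa, the alpha chain of the A molecule, measured 4.32, 6.30 and 8.06 in BCR-positive cells and 3.63, 3.68 and 3.07 in the clones. Each clone was below every BCR-positive array, but the BCR-positive arrays themselves spanned almost 4 log2 units, and the limma difference of -2.76 (SE 0.61, adjusted p = 0.47) was not called. H2-Eb1, the beta chain of the E molecule, measured 3.74, 4.68 and 6.44 against 3.54, 3.43 and 3.64 in the clones, a difference of -1.42 (SE 0.43, adjusted p = 0.56). Again the groups did not overlap, and tumour 2676 had the highest BCR-positive level. H2-Ab1, the partner chain of H2-Aa, measured 6.05, 7.43 and 8.74 against 6.25, 6.84 and 4.76 in the clones, so the groups overlapped and the clone of tumour 2567 was slightly above its BCR-positive cells.

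Ciita, the coactivator that switches class II genes on, measured 3.37, 3.80 and 4.26 in BCR-positive cells and 3.12, 3.07 and 3.27 in the clones, with no overlap and a difference of -0.66 (SE 0.14, adjusted p = 0.469). These levels are close to the array medians. Other members of the presentation pathway went another way. H2-Ob, a chain of the DO molecule that restrains peptide loading, measured 5.86, 6.40 and 5.99 in BCR-positive cells and 7.37, 7.78 and 5.76 in the clones. Its difference of 0.89 (SE 0.47) had overlapping groups. Ctss, the cathepsin that cuts the invariant chain, measured 7.91, 7.28 and 6.58 against 8.22, 8.21 and 7.39 in the clones, higher in every clone than in its own tumour's BCR-positive cells, with a difference of 0.68 (SE 0.16, adjusted p = 0.521).

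**Figure D2:**
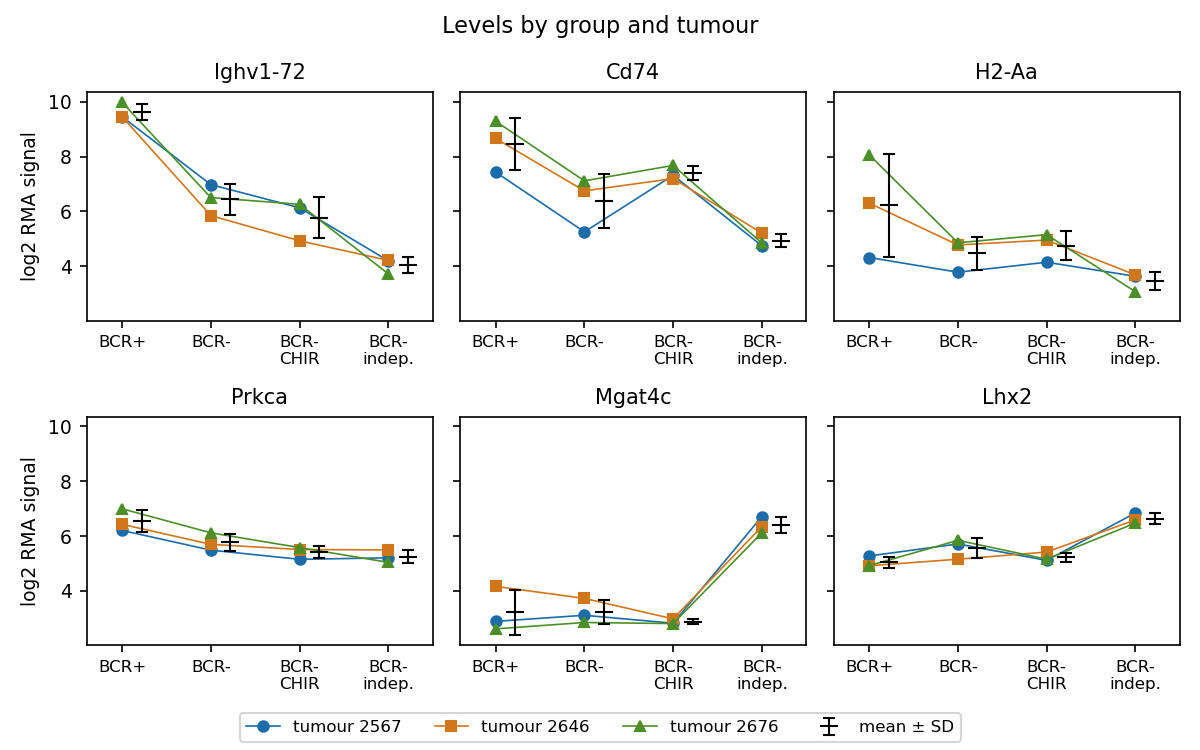
Log2 signal (vertical axis) of 6 genes in the 4 groups (horizontal axis), with 1 line per tumour and the group mean with its SD (n = 3) beside the points. Ighv1-72, Cd74, H2-Aa and Prkca are lower in the clones than in BCR-positive cells in all 3 tumours, and Mgat4c and Lhx2 are higher.

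Promoters of classical class II genes share a module of short elements, named the X and Y boxes, at which the complex that recruits CIITA assembles. The promoter windows of the class II genes are shown because the low and the not-low members can be set side by side in them. Each window is RefSeq sequence of GRCm38.p6, 300 bases from 250 before to 50 after the gene's start, written 5′ to 3′ on the gene's own strand. Capitals mark GCAAC, the core used for the X box, and ATTGG, the core used for the Y box. They were searched on the strand shown, in that order and with 20 to 35 bases between them, a pattern chosen after the sequences were seen and held by 0.794% of 32851 promoter windows. The windows lie at chr17:34287774-34288073 on the minus strand for H2-Aa, chr17:34305617-34305916 on the plus strand for H2-Eb1 and chr17:34238655-34238954 on the plus strand for H2-Ob.
H2-Aa: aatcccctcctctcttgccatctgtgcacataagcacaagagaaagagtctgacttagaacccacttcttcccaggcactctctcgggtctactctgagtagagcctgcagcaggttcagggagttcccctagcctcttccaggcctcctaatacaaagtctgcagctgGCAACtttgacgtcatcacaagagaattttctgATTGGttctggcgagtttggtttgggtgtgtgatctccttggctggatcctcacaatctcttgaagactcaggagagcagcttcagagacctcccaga
H2-Eb1: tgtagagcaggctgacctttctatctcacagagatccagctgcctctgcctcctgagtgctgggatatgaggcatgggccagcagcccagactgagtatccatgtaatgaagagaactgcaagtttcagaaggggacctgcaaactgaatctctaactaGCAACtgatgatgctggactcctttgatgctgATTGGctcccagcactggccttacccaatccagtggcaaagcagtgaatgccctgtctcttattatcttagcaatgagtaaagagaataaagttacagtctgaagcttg
H2-Ob: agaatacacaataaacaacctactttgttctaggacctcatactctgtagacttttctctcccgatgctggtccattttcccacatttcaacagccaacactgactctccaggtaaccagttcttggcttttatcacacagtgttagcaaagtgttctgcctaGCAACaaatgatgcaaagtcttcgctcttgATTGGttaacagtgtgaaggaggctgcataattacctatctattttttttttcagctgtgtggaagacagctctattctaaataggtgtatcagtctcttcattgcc
All 3 windows hold the pattern, as do those of H2-Oa and H2-Eb2. The levels of their genes differed in both directions: H2-Aa and H2-Eb1 had differences of -2.76 and -1.42, H2-Eb2 and H2-Oa had 0.016 and 0.34, and H2-Ob had 0.89. H2-Eb2 and H2-Oa lay close to the array medians in both groups. The windows of H2-DMa, H2-DMb1, H2-DMb2 and Ctss do not contain these letters in this order and spacing. A match is a description of the letters and was not tested as a site.

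MHC class I presentation, by which any cell shows its own peptides to cytotoxic T cells, had 0 of 13 measured members called. By limma 3 had an unadjusted p under 0.05, all lower, against 3.36% of all genes for that direction. In that list 9 of 13 genes were lower in the clones, with a median of -0.21 that was -0.36, -0.010 and -0.46 in the separate tumours. H2-K1, a classical class I heavy chain, measured 5.57, 7.17 and 8.16 in BCR-positive cells and 4.93, 6.37 and 5.89 in the clones, lower in each tumour but with overlapping groups and a difference of -1.24 (SE 0.32, adjusted p = 0.526). B2m, the light chain common to class I molecules, stayed among the most abundant transcripts at 9.81, 10.30 and 10.99 against 9.45, 10.18 and 10.06 in the clones. Tap1, the peptide transporter, had a difference of -2.03 in tumour 2676 and of -0.18 and -0.14 in the other tumours.

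Mgat4c was the gene that rose. It encodes an N-acetylglucosaminyltransferase-like member of the family that adds branches to N-linked glycans in the Golgi. BCR-positive cells measured 2.89, 4.17 and 2.62, near the array medians in tumours 2567 and 2676, and the clones measured 6.71, 6.35 and 6.12. All clones were well above all BCR-positive arrays. The limma difference was 3.17 (SE 0.28, adjusted p = 0.0101) with Benjamini-Hochberg adjustment, or 8.99-fold. BCR-positive signals exceeded their array's 40th percentile on 1 of 3 arrays only, and with lower signals set to that percentile the difference was 2.94. BCR-negative cells, at 3.11, 3.73 and 2.85, and treated ones, at 2.82, 2.98 and 2.81, were as low as BCR-positive cells, and clones exceeded BCR-negative cells by 3.16 (adjusted p = 0.0339, the limma test of that difference). The call against BCR-positive cells was lost without tumour 2567 (adjusted p = 0.278), without tumour 2676 (0.476) and when the title mark entered the model (0.0544).

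Among 18 measured N-glycan and sialic acid enzymes, Mgat4c was the 1 called, and 16 of 18 were higher in the clones with a median of 0.10. The medians were 0.42, 0.21 and -0.0069 in the separate tumours. Fut8, which adds the core fucose, had a difference of 0.50 (SE 0.15). Relatives of Mgat4c in the branching family had smaller or uneven differences: Mgat4a had -0.24, 0.46 and 1.40 in the separate tumours, Mgat4b had 0.28 (SE 0.17), and Mgat5, which makes a further branch, had 0.067 (SE 0.22). Xylt1, which starts the sugar chains of proteoglycans, went the other way. It measured 5.54, 5.94 and 6.42 in BCR-positive cells and 4.57, 4.93 and 5.27 in the clones. The groups did not overlap, and the within-tumour differences of -0.97, -1.01 and -1.15 were nearly equal, giving -1.04 (SE 0.12, adjusted p = 0.0544), just short of a call. Over the alternatives the limma adjusted p ran from 0.0243 to 1, the latter without the tumour block.

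Lhx2, a LIM-homeodomain transcription factor known from haematopoietic progenitors and from hair follicle and brain development, missed the threshold narrowly. BCR-positive cells measured 5.28, 4.92 and 4.93 and the clones 6.84, 6.59 and 6.48. Every clone was above every array of the 3 other groups, and the within-tumour differences of 1.57, 1.67 and 1.55 hardly varied. The limma difference was 1.60 (SE 0.18, adjusted p = 0.0506), or 3.03-fold. Over the alternatives the limma adjusted p ran from 0.0206 to 0.487, with 0.0255 without the tumour block. BCR-negative cells measured 5.71, 5.16 and 5.85. Lmo2, a LIM-only adaptor that bridges transcription factors in blood progenitors, measured 5.05, 5.70 and 5.60 against 5.72, 7.41 and 6.38 in the clones, with no overlap and a difference of 1.05 (SE 0.23, adjusted p = 0.47).

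LIM-domain regulators had 0 of 16 measured members called. In the limma fit 4 had an unadjusted p under 0.05, all of them higher in the clones, against 4.3% of all genes for that direction. They were Lhx2, Lmo2, Lhx9 and Isl2. Groups did not overlap for 4 members that were higher, against 4.88% of all genes. The list, which holds Lhx2, was chosen with earlier results known, so these counts are not independent of them. Lhx9 and Isl2 lay near the array medians, with differences of 0.24 (SE 0.084) and 0.22 (SE 0.083). Ldb1, the partner through which LIM proteins assemble, measured 8.73, 8.58 and 8.47 in BCR-positive cells and 8.87, 8.40 and 8.50 in the clones.

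Prkca, the gene of protein kinase C alpha, was lower in each clone. It measured 6.21, 6.43 and 7.00 in BCR-positive cells and 5.21, 5.50 and 5.04 in the clones. The groups did not overlap, and the difference of -1.29 (SE 0.18, adjusted p = 0.118), or 2.45-fold, was not called. BCR-negative cells measured 5.49, 5.70 and 6.12 and lay below BCR-positive cells in each tumour. Among protein kinase C genes 8 of 11 were lower, with a median of -0.100 and 0 called by limma. In that fit 3 had an unadjusted p under 0.05, all lower, against 3.36% of all genes for that direction. This list, which holds Prkca, was chosen with earlier results known, so the count is not independent of them. Prkcb, the isoform that links the BCR to NF-kB, measured 5.66, 3.29 and 5.66 in BCR-positive cells and 3.31, 3.28 and 3.36 in the clones. Tumour 2646 had a low level in both, while tumours 2567 and 2676 were lower in the clones only. Prkd2, a kinase activated by protein kinase C, was higher in 2 clones, with differences of 1.75, 0.80 and -0.093.

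Genes of the receptor's signalling chains and proximal kinases differed in both directions, with 8 of 20 higher in the clones and none called. By limma, 3 had an unadjusted p under 0.05 and were higher, and 5 were lower, against 4.3% and 3.36% of all genes. Blk, a SRC-family kinase of B cells, measured 4.69, 4.47 and 7.01 in BCR-positive cells and 3.68, 3.28 and 3.81 in the clones. The groups did not overlap, tumour 2676 had the widest gap, and the difference was -1.80 (SE 0.40, adjusted p = 0.47). Vav1, an exchange factor that couples the receptor to the cytoskeleton, measured 7.27, 7.69 and 7.55 against 6.85, 7.26 and 6.73 in the clones, also without overlap. Malt1, the protease of the complex that leads to NF-kB, had -0.54 (SE 0.17), and Grb2, an adaptor to RAS, had -0.35 (SE 0.10). Btk, in contrast, measured 7.71, 7.64 and 7.47 in BCR-positive cells and 8.46, 8.18 and 7.48 in the clones, and Syk measured 7.74, 8.17 and 7.84 against 7.94, 8.22 and 7.33 in the clones.

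Coreceptors and inhibitory receptors, which set how strongly the BCR signals, had a median of -0.023 and 0 of 17 called by limma. In that fit 2 were higher and 1 was lower with an unadjusted p under 0.05, against 4.3% and 3.36% of all genes. Cd72, an inhibitory receptor, was lower in each clone, with differences of -1.0, -0.16 and -1.03. Fcgr2b, the inhibitory Fc receptor, measured 7.78, 7.69 and 7.41 in BCR-positive cells and 8.41, 7.90 and 7.92 in the clones, with no overlap. Ifitm1, a small interferon-induced membrane protein, measured 3.07, 3.29 and 3.08 against 4.19, 3.52 and 4.11 in the clones, again without overlap and near the array medians in BCR-positive cells. Its difference was 0.79 (SE 0.17, adjusted p = 0.441).

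Genes of early B cell stages were lower in the clones of tumours 2567 and 2676. The list of early B cell and recombination genes had a median of -0.48, the lowest of the 24 lists described, with 10 of 16 lower and none called. By limma, 8 of 16 had an unadjusted p under 0.05 and were lower, against 3.36% of all genes. Tumour 2646 did not share the shift, with a median of 0.022 against -0.49 in tumour 2567 and -0.63 in tumour 2676.

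Il7r, the receptor for the growth factor of B cell precursors, measured 7.27, 7.66 and 8.89 in BCR-positive cells and 3.99, 7.23 and 6.88 in the clones. All clones were below all BCR-positive arrays, with the largest gap in tumour 2567 and a small one in tumour 2646, and the difference was -1.90 (SE 0.48, adjusted p = 0.526). Igll1, a part of the surrogate light chain of the pre-BCR, measured 5.27, 5.55 and 8.99 against 4.00, 3.92 and 4.07 in the clones. The clones were alike and low, and the difference was -2.60 (SE 0.76), widest in tumour 2676, whose BCR-positive level was high. Its partner Vpreb1 measured 4.00, 4.08 and 6.96 against 3.52, 3.69 and 4.10 in the clones. Rag2, a subunit of the recombinase, behaved differently, at 4.43, 4.42 and 3.97 in BCR-positive cells and 5.36, 6.65 and 3.44 in the clones.

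Myb, a transcription factor of proliferating progenitors, measured 8.96, 9.78 and 9.86 in BCR-positive cells and 7.98, 9.30 and 9.10 in the clones. Each clone lay below its own tumour's BCR-positive cells, with differences of -0.98, -0.48 and -0.75, although the groups overlapped, and the difference was -0.74 (SE 0.15, adjusted p = 0.441). Among B lineage transcription factors 19 of 28 were lower and none was called, with a median of -0.072. The medians were 0.18, -0.048 and -0.24 in the separate tumours. Ets1, which restrains plasma cell differentiation, had -0.52 (SE 0.14) with no overlap. Ebf1, which specifies the B lineage, measured 8.88, 8.92 and 9.34 against 7.54, 8.86 and 8.21 in the clones, and Mef2c, a factor downstream of the receptor, measured 7.74, 8.09 and 8.22 against 6.48, 8.19 and 7.04 in the clones. Both were close to their BCR-positive level in tumour 2646.

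**Figure D3:**
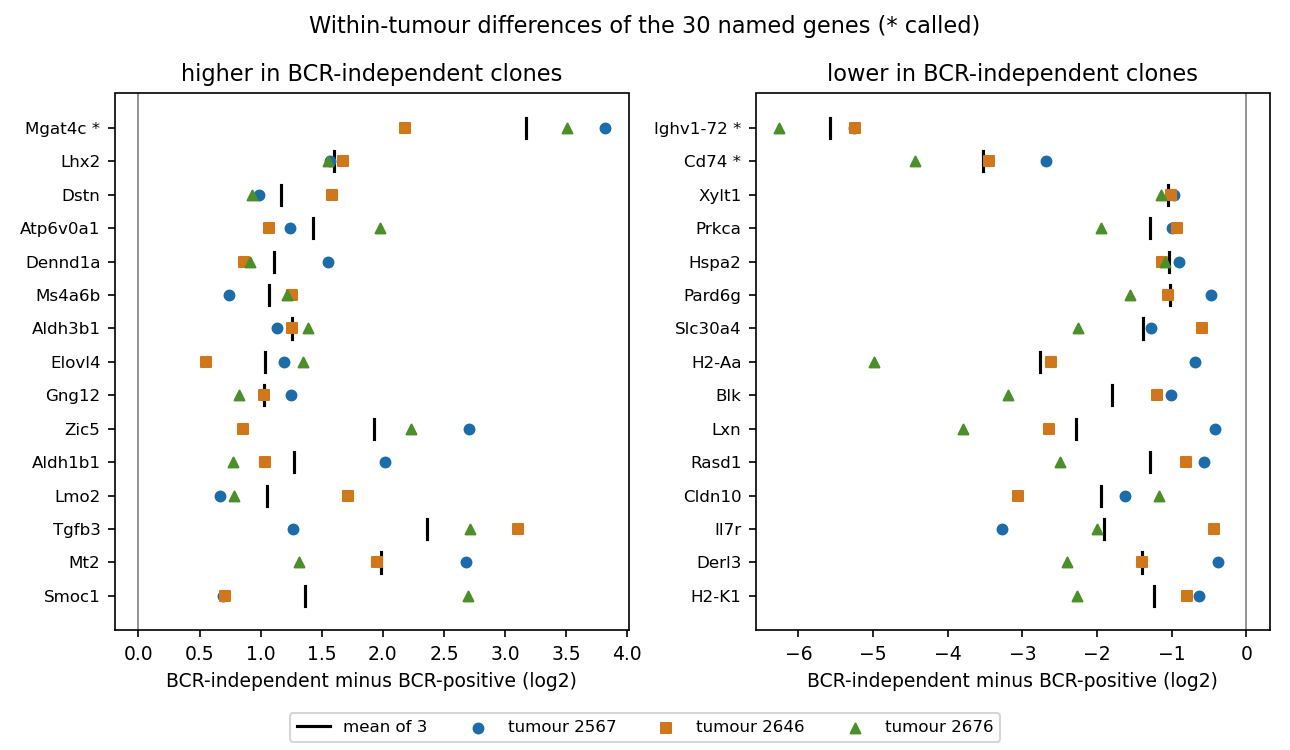
Within-tumour differences (log2, horizontal axis) of the 15 genes named as higher and the 15 named as lower in the clones, with 1 point per tumour and a bar at their mean, and asterisks at the 3 called genes. Lhx2 and Xylt1 have nearly equal differences in the 3 tumours, while H2-Aa, Lxn and Il7r have unequal ones.

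Several further genes were higher in all 3 clones without a call. Dstn, an actin-severing protein of the cofilin family, measured 6.31, 6.21 and 5.50 in BCR-positive cells and 7.29, 7.79 and 6.43 in the clones, a difference of 1.17 (SE 0.14, adjusted p = 0.0554). Atp6v0a1, a subunit of the pump that acidifies lysosomes, measured 5.49, 6.42 and 5.83 against 6.73, 7.49 and 7.81 in the clones, a difference of 1.43 (SE 0.18, adjusted p = 0.0647). Dennd1a, a factor of endocytic traffic, measured 6.53, 6.78 and 6.67 against 8.08, 7.65 and 7.58 in the clones. For all 3 genes no clone overlapped a BCR-positive array, and BCR-negative cells lay between, with differences from BCR-positive cells of 0.56, 0.33 and 0.55.

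The other genes of that kind had adjusted p-values from 0.171 upward in the limma fit. The aldehyde dehydrogenases Aldh3b1 and Aldh1b1 had differences of 1.26 (SE 0.19) and 1.28 (SE 0.27), and in tumour 2646 BCR-negative cells measured 7.93 and 7.19 where the clone measured 8.23 and 6.99. Elovl4, which lengthens very long fatty acids, had 1.03 (SE 0.17). Ms4a6b, a relative of CD20, had 1.07 (SE 0.16), and Gng12, a G protein subunit, had 1.03 (SE 0.19) on its brighter probe set but 0.084 on the dimmer one. Zic5, a zinc-finger factor of the developing nervous system, measured 3.75, 3.67 and 3.31 in BCR-positive cells and 6.45, 4.52 and 5.53 in the clones, but its other probe set differed by only 0.17. Mt2, a metallothionein that binds zinc and copper, measured 5.91, 7.38 and 7.07 against 8.59, 9.34 and 8.39 in the clones. Tgfb3, a ligand of the TGF-beta family, measured 3.09, 4.31 and 4.45 against 4.36, 7.42 and 7.16 in the clones, and BCR-negative cells of tumour 2646 were higher still at 7.87. Smoc1, a secreted matrix protein, was mainly high in the clone of tumour 2676, with differences of 0.69, 0.71 and 2.70.

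Genes lower in all 3 clones without a call included a zinc exporter, a chaperone and a polarity protein. Slc30a4, which moves zinc into vesicles, measured 6.64, 6.94 and 7.79 in BCR-positive cells and 5.36, 6.33 and 5.54 in the clones. Hspa2, a chaperone of the HSP70 family, measured 4.02, 4.73 and 5.44 against 3.12, 3.60 and 4.34 in the clones, and Pard6g, a cell polarity protein, measured 3.18, 4.58 and 5.26 against 2.71, 3.53 and 3.71 in the clones. The groups overlapped for Hspa2 and Pard6g and not for Slc30a4. Derl3, which extracts misfolded proteins from the endoplasmic reticulum, had -1.40 (SE 0.36), with -0.38, -1.40 and -2.40 in the separate tumours. Rasd1, a RAS-like G protein, had -1.29 (SE 0.32), with -0.57, -0.81 and -2.49 in the separate tumours. Neither overlapped, and without tumour 2676 the differences were -0.89 for Derl3 and -0.69 for Rasd1. Lxn, an inhibitor of carboxypeptidases, was high in the BCR-positive cells of tumours 2646 and 2676 only, at 3.34, 6.32 and 6.71, and low in every clone, at 2.92, 3.68 and 2.92. Cldn10, a tight junction protein, had -1.95 (SE 0.48), and its dimmer probe set gave -1.56.

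Of the DNA replication genes 20 of 21 were lower in the clones, with a median of -0.23, and none was called, while 6 had an unadjusted p under 0.05 in the limma fit, against 3.36% of all genes for that direction. The median was lower in all 3 tumours, at -0.15, -0.062 and -0.38. BCR-negative cells shared the direction, with 19 of 21 lower than in BCR-positive cells and a median of -0.11. Mcm4, a subunit of the replicative helicase, had -0.34 (SE 0.11), Cdc45, which activates it, had -0.36 (SE 0.15), and Uhrf1, which maintains DNA methylation behind the fork, had -0.41 (SE 0.100). Mitosis and spindle genes had 15 of 17 members lower and a median of -0.17. Here tumour 2567 went the other way, at 0.11, and the median was 0.076 once the title mark entered the model. Mki67, the proliferation marker, measured 9.51, 9.83 and 9.68 in BCR-positive cells and 9.52, 9.43 and 9.16 in the clones.

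Among regulators of entry into the cycle the median was -0.059, with 0 of 21 called. Rb1, the retinoblastoma protein that holds back E2F, had -0.63 (SE 0.18), and Ccnd3, the D-type cyclin of B cell precursors, had -0.61 (SE 0.23). Stress-response genes of p53 had a median of 0.015, whose sign turned under quantile and cyclic loess scaling. Mdm2, which targets p53 for degradation, had -0.48 (SE 0.12), and Plk2, a kinase induced by p53, had -1.48 (SE 0.49). MYC target and ribosome biogenesis genes, measured on 29 members, had a median of 0.061, with -0.021, -0.052 and 0.15 in the separate tumours.

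Both metabolic lists described here had medians of unlike sign in the tumours. Glycolysis and hypoxia response genes were lower at 21 of 29 members, with a median of -0.15, but the medians were 0.25, -0.68 and -0.28 in the separate tumours and 0.24 overall when the title mark entered the model. Kdm3a, a histone demethylase induced by hypoxia, measured 6.76, 7.96 and 8.29 in BCR-positive cells and 6.78, 6.73 and 6.75 in the clones. All clones were alike, and the BCR-positive cells of tumour 2567 were as low. Vegfa, the angiogenic growth factor, had -0.77 (SE 0.21), and Pfkfb3, which drives glycolysis through fructose bisphosphate, had -0.50 (SE 0.15), both without overlap. Cholesterol and fatty acid synthesis had 20 of 25 members higher and a median of 0.10, which was -0.11 when the title mark entered the model. Sqle, squalene epoxidase, was higher in each clone by 0.27, 0.62 and 0.20. No member of either list was called.

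Outputs of the pathways below the receptor showed small or uneven shifts. Immediate-early and ERK feedback genes were higher at 21 of 26 members, with a median of 0.15 and 0.26, 0.13 and -0.050 in the separate tumours. BCR-negative cells also had 21 of 26 higher than the same BCR-positive arrays, with a median of 0.11. Egr1, an early transcription factor, measured 3.47, 3.44 and 3.40 in BCR-positive cells and 4.64, 5.44 and 3.34 in the clones, and Dusp6, the ERK phosphatase, measured 3.16, 3.43 and 3.26 against 4.08, 5.57 and 3.15 in the clones. The clones of tumours 2567 and 2646 were high and that of tumour 2676 was at the BCR-positive level for both genes. NF-kB pathway and target genes were higher at 14 of 21 members, with a median of 0.14, and 5 members had clones wholly above BCR-positive arrays, against 4.88% of all genes. In BCR-negative cells 17 of 21 were higher than in BCR-positive cells, with a median of 0.11. Nfkb2, a precursor subunit of the alternative pathway, had 0.45 (SE 0.11) and Birc3, an inhibitor of apoptosis, had 0.46 (SE 0.19).

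RAS-MAPK components had 15 of 21 members lower and a median of -0.052. Rasgrp1, which activates RAS downstream of antigen receptors, had -0.75 (SE 0.31). Nf1, the member of smallest p, went the other way, with 0.32 (SE 0.077). PI3K-AKT components had a median of 0.016, which turned under quantile and cyclic loess scaling, and FOXO factors with their growth-arrest targets had 0.12. For the FOXO list BCR-negative cells had a median of 0.24 over the same BCR-positive arrays. Gsk3b, a target of CHIR99021, measured 6.70, 6.97 and 7.31 in BCR-positive cells and 6.96, 6.86 and 6.96 in the clones. Autophagy and lysosome genes had 15 of 20 members higher, a median of 0.11, and 5 with an unadjusted p under 0.05 by limma, against 4.3% of all genes. These included the cathepsins Ctsd, with 0.42 (SE 0.11), and Ctsz, with 0.42 (SE 0.14). Tetraspanins, membrane organisers, had 11 of 15 higher, while Tspan14, the member of smallest p, had -0.62 (SE 0.14) and Tspan2 had -1.25 (SE 0.41). None of these lists had a called member.

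**Figure D4:**
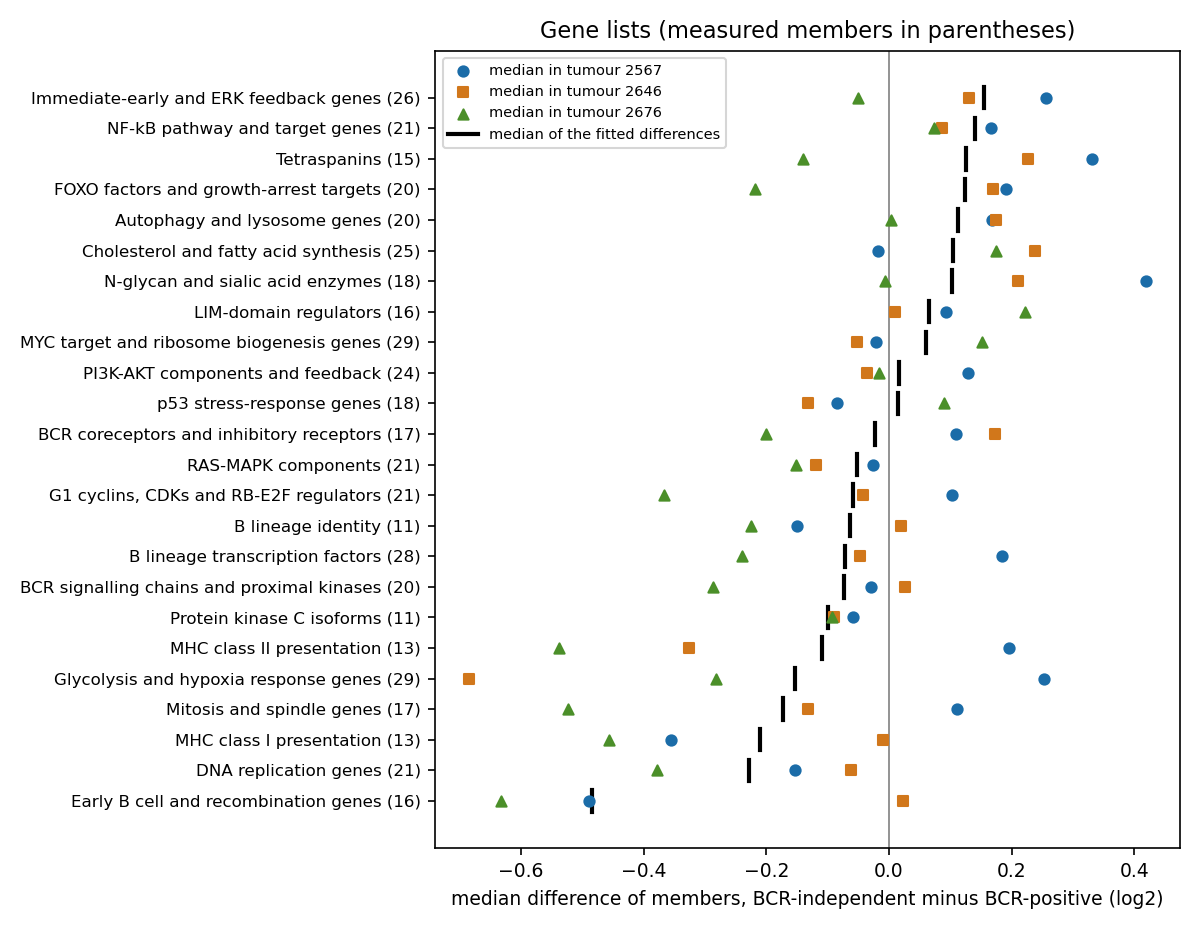
Median difference of the measured members (log2, horizontal axis) of the 24 gene lists described, as a bar over tumours and as 1 point per tumour. DNA replication genes are among the lists below 0 in all 3 tumours, as are MHC class I, protein kinase C and RAS-MAPK. Glycolysis, mitosis and MHC class II are among the lists above 0 in tumour 2567 only.

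Light chain transcripts separated the cells within tumours. A B cell usually keeps the kappa or lambda light chain it has rearranged, so the segment in use marks a clone. Because segments have near-identical copies, the names below are uncertain. Of 21 light chain probe sets, 13 have 1 gene and 8 have several. In tumour 2646 the BCR-positive cells had high Igkv1-135, at 11.08, and Igkv1-117, at 10.28, and its clone had 3.69 and 3.60. BCR-negative cells of that tumour measured 8.90 and 4.61. The constant region Igkc was at 4.08 in the BCR-positive cells of tumour 2646, 6.46 in its BCR-negative cells and 8.20 in the clone. In tumours 2567 and 2676 it was at 5.01 and 4.95 in BCR-positive cells. Igkc was thus low on arrays with bright kappa variable segments, so this probe set cannot be read as a measure of kappa use. A lambda probe set of several genes measured 7.47 in BCR-positive cells, 10.65 in BCR-negative cells and 9.92 in the clone of this tumour. It was thus already high in the BCR-negative cells and does not mark the clone. In all, 7 light chain probe sets were at least 2 log2 units higher in this clone than in BCR-positive cells and 3 were that much lower.

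Clone and BCR-positive cells of tumour 2567 also differed. A kappa probe set of several genes measured 3.23 in BCR-positive cells, 2.87 in BCR-negative cells and 8.82 in the clone. The pair of lambda probe sets, each of several genes, measured 3.96 and 3.79 in BCR-positive cells and 8.12 and 8.47 in the clone. In tumour 2676 the clone had Igkv1-135 at 7.45 where BCR-positive cells had 4.22, and Igkv6-23 was high in both, at 8.94 and 8.46. Igkv6-23 was also high in tumours 2567 and 2646, at 8.70 and 7.69 in BCR-positive cells and 7.29 and 6.84 in the clones. It therefore marks no single tumour or clone. With 1 array per tumour and group these values have no replicate.

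**Figure D5:**
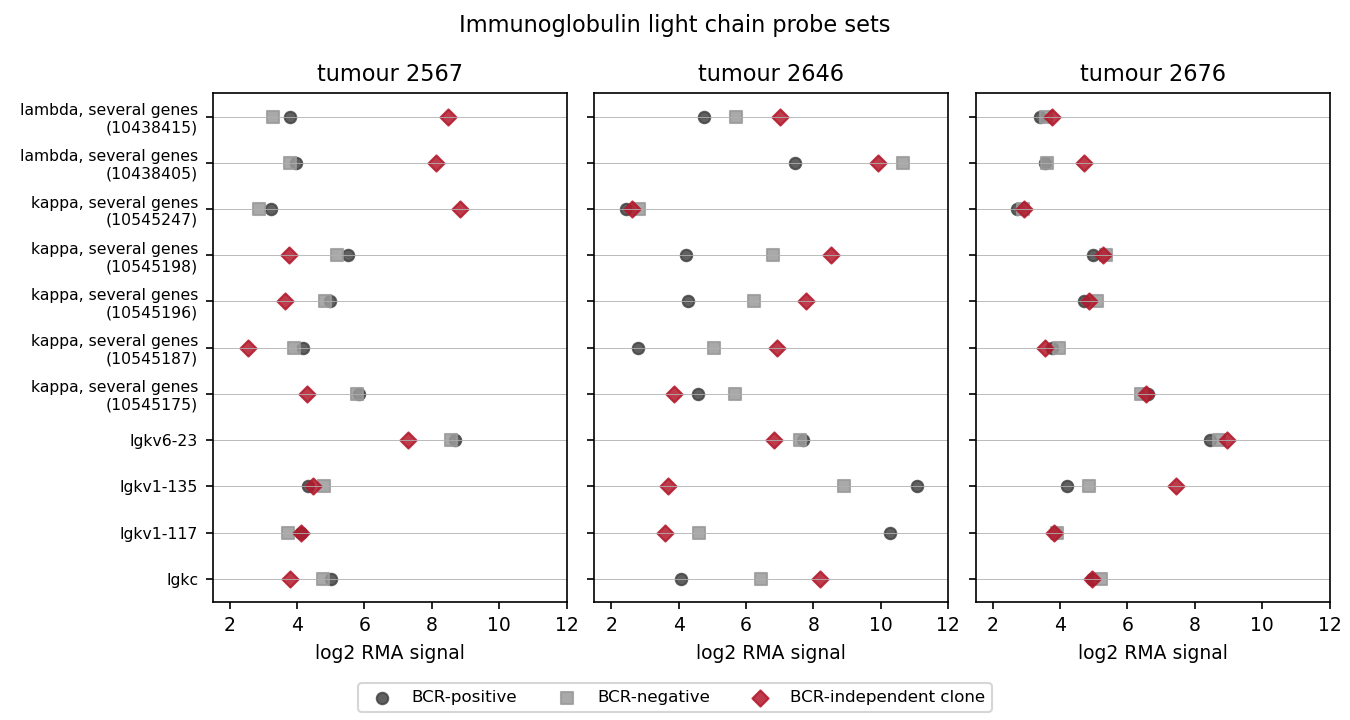
Log2 signal (horizontal axis) of immunoglobulin light chain probe sets (vertical axis) in BCR-positive cells, BCR-negative cells and the BCR-independent clone, 1 panel per tumour and 1 array per point. In tumour 2646 Igkv1-135 and Igkv1-117 are high in BCR-positive cells and low in the clone, and in tumour 2567 lambda and kappa probe sets of several genes are high in the clone only.

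BCR-negative cells, set against the same BCR-positive arrays, had 0 of 35556 probe sets called by limma (0%) and 1276 (3.59%) with an unadjusted p under 0.05. Both comparisons share the BCR-positive arrays, so their values are given side by side only. Cd74 differed by -3.52 in the clones and -2.09 in BCR-negative cells, Prkca by -1.29 and -0.77, and Lhx2 by 1.60 and 0.53. Il7r had -1.90 against -0.31, and Xylt1 had -1.04 against -0.22. Direct comparison of clones with BCR-negative cells called 2 probe sets (0.00562%), Mgat4c and a heavy chain probe set of several genes. The difference between clones and BCR-negative cells was -1.44 for Cd74, -0.52 for Prkca and 1.07 for Lhx2, none of them called.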

How the data were processed

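Expression was measured on 12 arrays, 3 per group, and the sorted groups were taken from the sample labels. The values are log2 signals that the authors deposited, made by RMA (Affymetrix Power Tools, by the submitters' processing notes). RMA subtracts background, quantile-normalizes the arrays and summarises probes, which compresses differences between dim probe sets. The sources used here give neither its version nor the annotation build. The number of arrays limits the precision.

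The values were used as deposited. In R 4.3.3, limma 3.58.1 (lmFit and eBayes) fitted group and tumour over all 12 arrays and 35556 probe sets, with 6 residual and 2.63 prior degrees of freedom and Benjamini-Hochberg adjustment over all probe sets. The code was tested on simulated data. The tumour pairs the arrays because each group has 1 array from each source tumour. After each group's mean was subtracted, with no tumour term, arrays of 1 tumour correlated at 0.241 to 0.632. Those of different tumours correlated at -0.702 to 0.0648. Subtracting the mean of 3 arrays by itself pushes arrays of a group towards negative correlation, so the lower end is partly built in.

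Of the probe sets, 21218 had 1 gene symbol, 1881 several and 12457 none in GEO's platform annotation. Symbols of 21185 were updated by gene ID through a RefSeq table of GRCm38.p6. Where a gene had several (1386 of 18820 genes), the one of highest mean was read. The 39 gene lists hold 735 genes, 668 of them measured and 2 of those called, and are described by counts and medians with no set test.

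Named are the 15 genes higher and 15 lower that were called, filled up with the smallest p among genes with a mean difference of at least 1 log2 unit and the same direction in 3 tumours. Called list members, check genes and immunoglobulin segments are named too. Of the 4 members of smallest p of each list described, some are printed and others are not, and for some lists none is. Other genes with values, such as H2-Ob, Rag2, Btk, Syk and Cd2, were chosen after their values were seen. Members and lists were chosen with earlier results of these data known. Promoters are RefSeq sequences. Alternatives were other filters, scalings, weights, models, the title mark and leaving out tumours.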

Additional observations from a re-analysis of the deposited data

Results flagged for a closer look

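For 2 probe sets the difference from BCR-positive cells was itself different in the clones and in BCR-negative cells, by the limma test of clones against BCR-negative cells, in which the BCR-positive arrays cancel. Mgat4c had a difference from BCR-positive cells of 3.17 in the clones and 0.0048 in BCR-negative cells, so clones exceeded BCR-negative cells by 3.16 (SE 0.28, Benjamini-Hochberg adjusted p = 0.0339). All 3 clones were higher than all 6 other untreated arrays for this gene. Probe set 10403043, annotated to more than 1 heavy chain gene, measured 10.66, 10.76 and 11.07 in BCR-positive cells, 8.51, 7.47 and 8.12 in BCR-negative cells and 4.76, 4.32 and 4.10 in the clones of tumours 2567, 2646 and 2676. Its differences were -6.43 for the clones and -2.80 for BCR-negative cells, and the difference of clones minus BCR-negative cells was -3.64 (SE 0.32, adjusted p = 0.0339). The sort selected on the protein that such transcripts encode, which bears on the differences from BCR-positive cells. Clones and BCR-negative cells both lack the receptor by their labels, and the cause of the difference between them was not tested.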

How the results depend on the processing

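Against the 8 probe sets called for clones against BCR-positive cells, the filters at the 40th and 60th percentile each gave 15 and the genes-only fit with the 40th percentile filter gave 11. Only the 2 groups compared gave 0, with 1718 probe sets at an unadjusted p under 0.05 in limma. The title mark as a term gave 11, of which 5 were among the 8. Higher and lower calls were 2 and 6 in the fit used, 5 and 10 under the filters, 1 and 7 under quantile normalization, 4 and 7 with the title mark and 5 and 6 for genes only. Leaving out 1 tumour gave 0 to 8 calls. In the fit without the replicate block 7 were called, 6 of them among the 8, with Cd74 losing its call and Lhx2 gaining one. BCR-negative against BCR-positive cells gave 4 calls under the 60th percentile filter and 1 for genes only, against 0. Clones against BCR-negative cells, with 2 calls, gave 0 without the replicate block or with only the 2 groups, 1 for genes only or with the title mark, and 0 to 2 without 1 tumour. For clones against BCR-positive cells, 7 named genes not called in the fit used were called under some setting, Lhx2, Xylt1, Dstn and Prkca among them. Adjusted p ran from 0.0206 to 0.487 for Lhx2, 0.0243 to 1 for Xylt1 and Dstn and 0.0445 to 0.989 for Prkca. With only the 2 groups compared, adjusted p was 0.0611 for Ighv1-72, 0.762 for Cd74 and 0.989 for Mgat4c. Genes named whose sign turned were Cd79b (-0.0034 under quantile normalization and -0.099 to 0.12 without 1 tumour), Gsk3b (0.25 with the title mark and -0.23 to 0.072 without 1 tumour), Ccng2 (0.033), Msmo1 (-0.031) and Mki67 (0.045), the last 3 with the title mark. Mgat4c, Ighv1-72 and Cd74 lost their call in 12 of 45 alternative values. List medians turned sign in 30 of 336 alternative values, in 13 of the 24 lists described. Filters test fewer probe sets and the other settings' causes were not tested. Signals near the array medians limit what can be read for dim genes.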

Other observations

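Some genes differed between clone and BCR-positive cells in 1 tumour only. By at least 2 log2 units in 1 tumour and by less than 0.5 in each of the other tumours, 44 genes differed between clone and BCR-positive cells, and with 1 array per tumour and group none of these differences has a replicate. Clone 8 of tumour 2567 had 14 such genes higher and 5 lower. Ndufa4l2, a mitochondrial protein known as a hypoxia target, measured 7.30 there and 2.61 in the BCR-positive cells. Gadd45b, a stress sensor, measured 9.10 against 5.08. Among the low ones, Osr1, a zinc-finger transcription factor, measured 3.24 against 7.74, where the lowest BCR-positive level of the 3 tumours was 3.05, and Trib2, a pseudokinase, measured 3.76 against 7.18. The BCR-negative cells of that tumour were close to its BCR-positive cells for all 4 genes, at 3.0, 4.98, 7.21 and 6.95.

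Clone 7 of tumour 2646 had 11 such genes higher and 4 lower. Colec12, a scavenger receptor, measured 9.48 against 5.45, and Gja1, a connexin of gap junctions, measured 6.52 against 2.81. Both were also high in the BCR-negative cells of that tumour, at 9.50 and 5.21. In clone 1 of tumour 2676, 4 were higher and 6 lower. Pnrc2, a factor of mRNA decay, measured 3.70 against 7.44 and Cpn1, a carboxypeptidase subunit, measured 3.09 against 6.62, where the lowest BCR-positive level of the 3 tumours was 3.16. Its high genes included Pdcd1lg2, a ligand of the inhibitory receptor PD-1, at 5.06 against 2.84, and Zic2, a relative of Zic5, at 4.92 against 2.84.

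The lists not described above, 15 in number, had medians between -0.026 and 0.19. Amino acid transport and stress response genes were higher at 15 of 19 members. Slc1a5, a glutamine transporter, had a difference of 0.32 (SE 0.10). Unfolded protein response genes had a median of 0.33 in tumour 2567, -0.28 in tumour 2646 and -0.031 in tumour 2676. Interferon response genes had a median of 0.015, with 0 of 20 called by limma and 0 with an unadjusted p under 0.05.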
